A study of Mus musculus with 2 samples.

Results

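Lysosomal hydrolases, lysosomal membrane proteins and subunits of the lysosomal proton pump were examined in inflammatory monocytes of the mouse colon. The 31 genes were listed by name and read from an expression array on which 22184 genes had a probe set of their own. They comprised 8 cathepsins, 10 other hydrolases and their cofactors, 6 membrane proteins, 6 genes of the vacuolar proton pump (V-ATPase) and the transcription factor gene Tfeb, which stood alone. Of the 31 genes, 30 had a probe set of their own and 27 were above the detection floor on both arrays.

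The monocytes came from Nlrp6-/- mice, which lack the gene for an inflammasome sensor of the NOD-like receptor group, and from wild-type (WT) mice, both on the C57BL/6 strain. All mice had received the colon carcinogen azoxymethane (AOM) at 10 mg/kg and, from day 5, the epithelium-injuring agent dextran sodium sulfate (DSS) at 2% for 5 days. CD11b+ Ly6C-high cells lacking CD3 and Ly6G were sorted from the colon lamina propria on day 10. Each genotype was measured on 1 array, and the number of mice behind each RNA is not in the labels, so no difference below has an error or a p-value. Nlrp6 was below the floor on both arrays, at 2.67 in Nlrp6-/- and 2.32 in WT, which leaves the genotype labels unchecked. Of 12 monocyte markers, 11 had a probe set of their own, and those 11 were above both floors.

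Lysosomes are acidic compartments in which hydrolases break down proteins, lipids and glycans taken up by endocytosis, phagocytosis or autophagy. The V-ATPase pumps protons into the lumen, and membrane proteins such as LAMP proteins and ion channels shape the compartment. Many lysosomal genes are under the control of TFEB and its relatives MITF, TFE3 and TFEC, which bind a DNA element known as CLEAR. In monocytes and macrophages the same enzymes also process antigens, digest dying cells and release cholesterol from lipoproteins.

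The CLEAR element has an E-box, CACGTG, at its centre, and its core is the 8-base palindrome TCACGTGA. RefSeq promoter windows (mouse build GRCm38.p6, 250 bases before to 50 bases after a gene's start) were available for 26 of the 31 genes. Ctsb, Ctsh, Atp6v0d2, Atp6v1b2 and Atp6v1h had none. Both motifs read the same on either strand, and the longer one contains the E-box. The sites that hold the whole 8-base core are printed with their flanks. The E-box is in capitals.
Atp6v1a, chr16:44139375-44139400, minus strand: ttttttaaatCACGTGataggcttaa
Ctsd, chr7:142387910-142387935, minus strand: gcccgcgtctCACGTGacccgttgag
Mcoln1, chr8:3500464-3500489, plus strand: gcgccccgctCACGTGaccgcggcgc
Ctsa, chr2:164833751-164833776, plus strand: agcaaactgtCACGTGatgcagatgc
Ctsa, chr2:164833768-164833793, plus strand: tgcagatgctCACGTGaccagagcta
Atp6v0d1, chr8:105566052-105566077, minus strand: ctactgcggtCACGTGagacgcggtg

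The capitals of the Atp6v1a site began 131 bases before the start of its gene, those of the Ctsd site 98 bases before and those of the Mcoln1 site 45 bases before. The Ctsa sites lay on both sides of one of its start sites, and the capitals of the Atp6v0d1 site began 3 bases before its start. Whole windows are shown for Lipa, the gene with the largest difference between the arrays, for Atp6v1a, the second largest and the largest of the genes that hold the 8-base core, and for Lamp1, which had more E-boxes than any other listed gene.
Lipa, chr19:34527425-34527724, minus strand: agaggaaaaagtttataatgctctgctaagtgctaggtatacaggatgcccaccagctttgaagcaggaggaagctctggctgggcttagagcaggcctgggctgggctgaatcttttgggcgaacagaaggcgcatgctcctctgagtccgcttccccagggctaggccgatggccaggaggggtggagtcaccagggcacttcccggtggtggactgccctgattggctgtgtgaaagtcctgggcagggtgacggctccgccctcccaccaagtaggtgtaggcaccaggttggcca
Atp6v1a, chr16:44139210-44139509, minus strand: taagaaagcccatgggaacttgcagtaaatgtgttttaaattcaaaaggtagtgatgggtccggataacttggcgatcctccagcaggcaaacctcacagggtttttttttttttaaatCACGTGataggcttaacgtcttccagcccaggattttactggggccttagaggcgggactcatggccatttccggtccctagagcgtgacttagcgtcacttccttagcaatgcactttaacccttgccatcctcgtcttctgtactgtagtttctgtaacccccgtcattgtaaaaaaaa
Lamp1, chr8:13158911-13159210, plus strand: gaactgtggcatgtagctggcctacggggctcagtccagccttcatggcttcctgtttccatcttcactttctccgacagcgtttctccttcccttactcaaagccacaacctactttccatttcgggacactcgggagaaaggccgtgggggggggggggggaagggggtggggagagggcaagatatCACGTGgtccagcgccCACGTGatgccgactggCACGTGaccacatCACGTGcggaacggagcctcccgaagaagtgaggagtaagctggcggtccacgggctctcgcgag

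The letters CACGTG were not in the Lipa window. The Atp6v1a window held 1 E-box and the Lamp1 window held 4, which began between 61 and 15 bases before the start. By gene, 10 of the 26 (38.5%) had at least 1 E-box in a window, against 8.09% of the 27025 genes of the promoter table and 11.6% of the 7479 genes above a floor on these arrays that had a window. The 8-base core was in 5 of the 26 (19.2%), against 1.12% and 2.42%. These are matches of letters and not measured binding sites.

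Levels are given as log2 values from the robust multiarray average (RMA), and every difference is Nlrp6-/- minus WT on that scale. As a detection floor, each array used the level that 95% of its 1401 olfactory and vomeronasal receptor probe sets stayed under, 3.22 in Nlrp6-/- and 3.26 in WT. Of the 27 genes above both floors, 20 were lower in Nlrp6-/- and 7 were higher, with a median difference of -0.20. Among all 9528 genes above the floor on at least 1 array, 48.4% were lower by any amount, 51.6% were higher, and the median difference was 0.01. A difference of at least 1.5-fold was reached by 4 of the 27, Lipa, Atp6v1a, Ctsz and Hexa, each lower in Nlrp6-/-. Of all genes above a floor, 3.05% were at least 1.5-fold lower. None of the 27 was at least 1.5-fold higher, against 6.21% of all genes, and none reached 2-fold in either direction, against 0.325% lower and 1.62% higher.

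**Figure D1:**
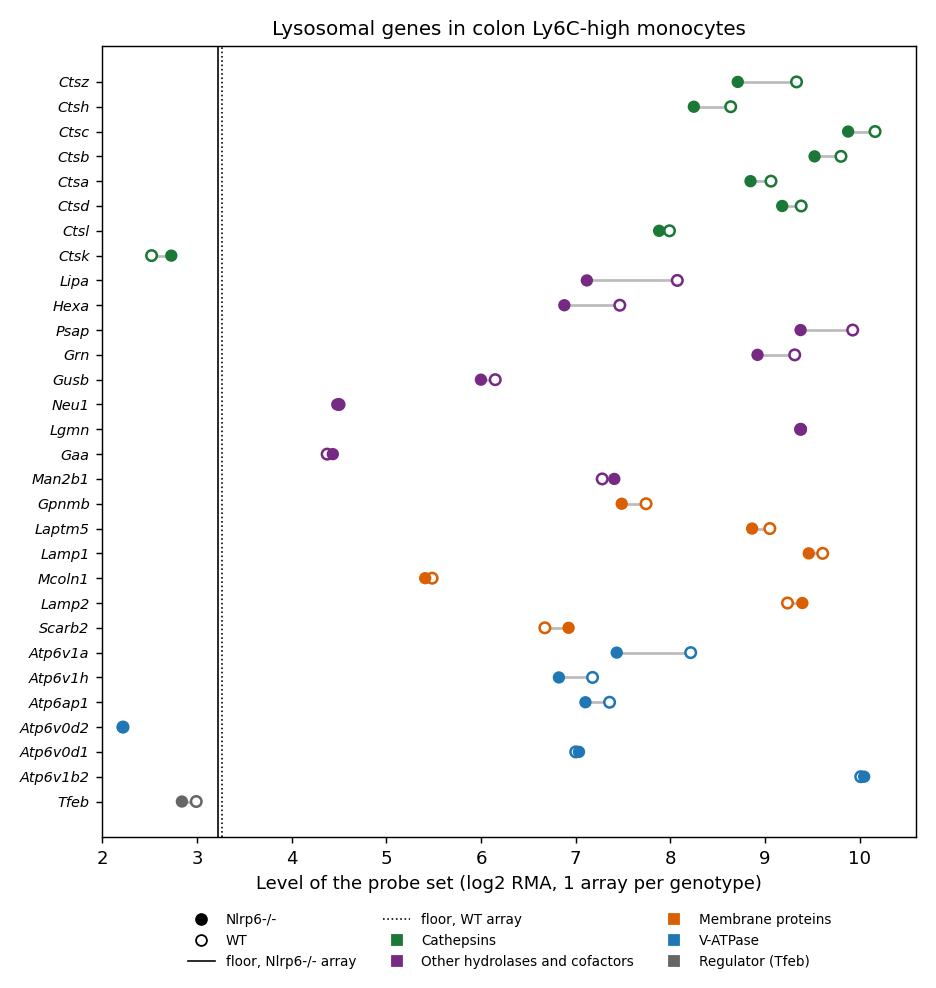
Log2 RMA level of each of the 30 genes named by a probe set of its own (filled circles, Nlrp6-/-; open circles, WT; 1 array each), coloured by group and ordered by difference within a group. Ctsk, Atp6v0d2 and Tfeb lie left of the detection floors (vertical lines, 3.22 in Nlrp6-/- and 3.26 in WT), and the longest bars belong to Lipa and Atp6v1a.

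Precision could be judged only from within the arrays. The receptor probe sets, which colon monocytes are not known to use, differed between the arrays with an SD of 0.19. Nearly all of them lay under the floors, whereas 22 of the 27 lysosomal genes had a mean level of at least 7. Over all 8566 genes above both floors, the SD of the difference was 0.38. In the 422 genes that had more than 1 probe set above both floors, the probe sets of 1 gene disagreed by a median of 0.31 and by 0.79 at the 90th percentile. Of the 27 lysosomal genes, 8 differed by more than that median, and Lipa alone differed by more than the 90th percentile. The share of all genes past these cuts was not counted, so these counts do not set the 27 apart from other genes. The other 19 differences were no larger than what separate probe sets of 1 gene commonly show.

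The cathepsins, the main lysosomal proteases, were the group most uniform in direction. All 7 listed ones above the floors were lower in Nlrp6-/-, against 48.4% of all genes, with a median difference of -0.28 and a range from -0.62 to -0.11. Ctsz, a carboxypeptidase, was at 8.71 in Nlrp6-/- and 9.33 in WT, a difference of -0.62 or 1.54-fold. Of the 8566 genes above both floors, 2.72% had a lower difference than Ctsz. Ctsh, an aminopeptidase, was at 8.25 in Nlrp6-/- and 8.64 in WT, a difference of -0.39. These were the listed cathepsins that lay furthest apart. The other 5 differed by at most 1.22-fold, within the median disagreement of 0.31 on the log2 scale between probe sets of 1 gene.

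Ctsc, a dipeptidyl peptidase that activates granule serine proteases, was at 9.88 in Nlrp6-/- and 10.16 in WT, a difference of -0.28. Ctsb, a cysteine protease with endopeptidase and peptidyl-dipeptidase activity, was at 9.52 in Nlrp6-/- and 9.80 in WT, also -0.28. The aspartic protease gene Ctsd was at 9.18 in Nlrp6-/- and 9.38 in WT, a difference of -0.20. Ctsa encodes a carboxypeptidase that also stabilises other lysosomal enzymes. It was at 8.85 in Nlrp6-/- and 9.06 in WT, a difference of -0.22. Ctsl, an endopeptidase, was closest between the genotypes, at 7.88 in Nlrp6-/- and 7.99 in WT. Ctsk, a collagen-degrading protease typical of osteoclasts, was below both floors, at 2.73 in Nlrp6-/- and 2.52 in WT.

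The other hydrolases and cofactors held genes that lay apart on the arrays and genes that were nearly level. Of the 9 measured, 6 were lower in Nlrp6-/- and 3 higher, with a median difference of -0.15. Lipa encodes the acid lipase that frees cholesterol and fatty acids from endocytosed lipids. It was at 7.12 in Nlrp6-/- and 8.07 in WT, a difference of -0.96 or 1.94-fold, and 0.420% of the 8566 genes above both floors had a lower difference. Hexa, a subunit of the β-hexosaminidase that degrades gangliosides, was at 6.88 in Nlrp6-/- and 7.47 in WT, a difference of -0.59, just past the 1.5-fold threshold. Psap, the precursor of the saposins that present sphingolipids to their hydrolases, was at 9.38 in Nlrp6-/- and 9.93 in WT. Its difference of -0.55, or 1.46-fold, lay just short of the threshold.

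Grn encodes progranulin, a secreted and lysosomal protein needed for normal lysosome function, and was at 8.92 in Nlrp6-/- and 9.31 in WT, a difference of -0.39. The differences of the other 5 were between -0.15 and 0.13, within the receptor SD. Gusb, the β-glucuronidase, was at 6.00 in Nlrp6-/- and 6.15 in WT. The sialidase gene Neu1 was at 4.48 in Nlrp6-/- and 4.50 in WT, and Lgmn, the asparaginyl protease that matures several cathepsins, was at 9.38 on both arrays. Gaa, which degrades glycogen, was at 4.43 in Nlrp6-/- and 4.37 in WT. Man2b1, an α-mannosidase, was at 7.41 in Nlrp6-/- and 7.28 in WT. No level is given for Glb1, the β-galactosidase, whose only probe set is annotated to several genes.

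**Figure D2:**
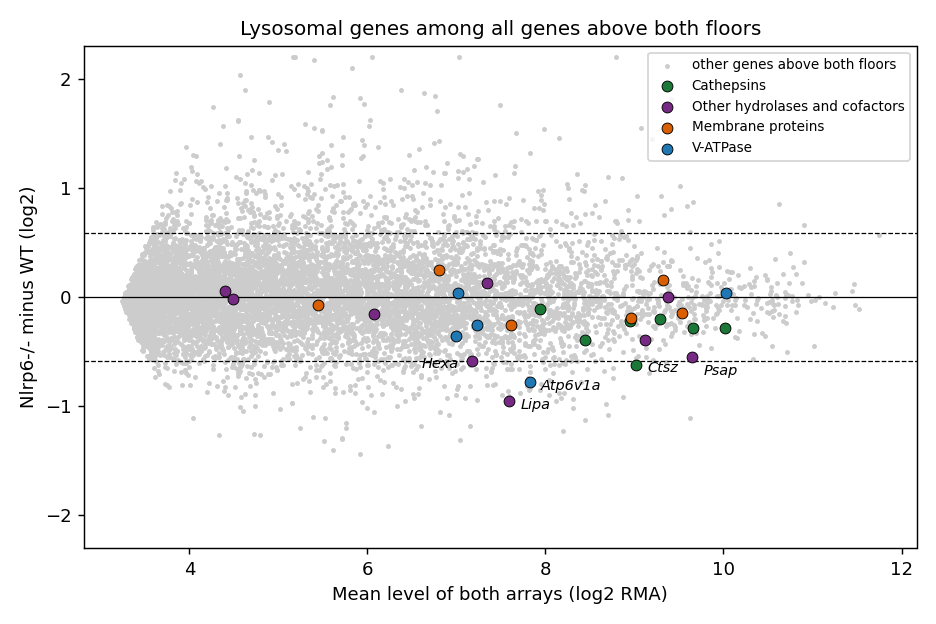
Difference between the genotypes (Nlrp6-/- minus WT, log2) against the mean level of both arrays for all genes above both floors (grey) and the 27 lysosomal genes (coloured by group). Dashed lines mark 1.5-fold, 5 grey genes beyond 2.2 are drawn at the edge, and Lipa, Atp6v1a, Ctsz and Hexa lie at or under the lower dashed line, with Psap just above it.

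The membrane proteins differed least among the groups with several genes above the floors. Of the 6, 4 were lower in Nlrp6-/- and 2 higher, with a median difference of -0.11. None was at 1.5-fold, beside 3.05% of all genes lower and 6.21% higher by that much. Gpnmb, a glycoprotein of macrophage lysosomes and melanosomes, was at 7.49 in Nlrp6-/- and 7.74 in WT, a difference of -0.26. Laptm5, a lysosomal protein of blood cells, was at 8.86 in Nlrp6-/- and 9.05 in WT, a difference of -0.19. The major lysosomal glycoprotein gene Lamp1, with its 4 E-boxes, was at 9.46 in Nlrp6-/- and 9.61 in WT. Its relative Lamp2, which also serves chaperone-mediated autophagy, went the other way, at 9.39 in Nlrp6-/- and 9.24 in WT. Scarb2, the receptor that carries glucocerebrosidase to lysosomes, was at 6.93 in Nlrp6-/- and 6.67 in WT. Its difference of 0.25 was the highest of the 27. Mcoln1, a cation channel that releases lysosomal calcium, was at 5.41 in Nlrp6-/- and 5.48 in WT.

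The V-ATPase consists of a cytosolic V1 part that splits ATP and a membrane V0 part that conducts protons. Of its 5 listed genes above the floors, 3 were lower in Nlrp6-/- and 2 higher, with a median difference of -0.26. Atp6v1a, the catalytic subunit of V1, was at 7.43 in Nlrp6-/- and 8.21 in WT, a difference of -0.78 or 1.72-fold. Of the genes above both floors, 1.24% had a lower difference. Atp6v1h, a regulatory V1 subunit, was at 6.82 in Nlrp6-/- and 7.18 in WT, and Atp6ap1, an accessory subunit, was at 7.10 in Nlrp6-/- and 7.36 in WT. Their differences were -0.36 and -0.26.

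Atp6v1b2, the V1 subunit that pairs with the catalytic one, had 2 probe sets that disagreed. The brighter one was at 10.05 in Nlrp6-/- and 10.01 in WT, a difference of 0.04. The other was at 8.30 in Nlrp6-/- and 8.90 in WT, a difference of -0.60 or 1.52-fold. With the other probe set in its place, a choice made after the data were seen, 5 of the 27 genes passed 1.5-fold on the low side, and the V-ATPase median was -0.36, so neither direction is settled for this gene. Atp6v0d1, a V0 subunit found in most cells, was at 7.03 in Nlrp6-/- and 7.001 in WT. Its counterpart Atp6v0d2, known from osteoclasts and some macrophages, was below both floors, at 2.22 on each array.

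Tfeb was below both floors, at 2.84 in Nlrp6-/- and 2.99 in WT, so it has no measured difference. The other genes of this family and their partners were taken from lists of further lysosomal genes. Of 19 measured genes of the MiT/TFE factors and of the machinery that anchors the growth kinase complex mTORC1 to lysosomes, 13 were lower and 6 higher, with a median of -0.22. At least 1.5-fold lower were 3 of them, against 3.05% of all genes, and none was 1.5-fold higher, against 6.21%. Mitf, a relative of Tfeb, was at 5.96 in Nlrp6-/- and 6.80 in WT, a difference of -0.85. Fnip2, a partner of folliculin in mTORC1 signalling to these factors, was at 7.41 in Nlrp6-/- and 8.24 in WT, and Fnip1, its relative, was at 6.60 in Nlrp6-/- and 7.29 in WT. Their differences were -0.83 and -0.69.

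Lysosomal genes outside the 31 did not lie lower to the same extent as a whole. Of 124 further genes above a floor, from 8 lists, 70 were lower and 54 higher, with a median of -0.08. At least 1.5-fold lower were 8, against 3.05% of all genes, and 6 were at least 1.5-fold higher, against 6.21%. Further cathepsins and proteases had 7 of 10 lower and a median of -0.13, but a mean of 0.04. In this list Cpq, a dipeptidase, was at 4.31 in Nlrp6-/- and 3.62 in WT, and the aspartic protease gene Ctse was at 5.20 in Nlrp6-/- and 4.64 in WT. Ctso, a cysteine protease, was at 3.44 in Nlrp6-/- and 3.66 in WT. The proteases outside the listed cathepsins therefore included members on both sides of their WT level.

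Further glycosidases and sulfatases had a median of -0.03, with 6 of 11 lower. Aga, which cuts glycans from asparagine, was at 5.18 in Nlrp6-/- and 4.42 in WT, a difference of 0.76. Glmp, a lysosomal membrane glycoprotein, differed by 0.50 and the fucosidase gene Fuca1 by 0.43. Lipid hydrolases and other enzymes had a median of 0.02, with 7 of 14 lower, and a median of -0.11 with a gene's probe sets averaged. Pla2g15, the lysosomal phospholipase, was at 7.17 in Nlrp6-/- and 6.12 in WT, a difference of 1.05, opposite in direction to Lipa. Ppt2, a thioesterase, was at 4.20 in Nlrp6-/- and 4.89 in WT, a difference of -0.69. Gm2a, the activator that works with β-hexosaminidase, was at 7.84 in Nlrp6-/- and 8.33 in WT, a difference of -0.48, the same direction as Hexa.

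Further membrane proteins and transporters had a median of -0.04 over 29 genes, with 16 lower. At least 1.5-fold lower were 3 of them and 1 was 1.5-fold higher, beside the same 3.05% and 6.21% of all genes. Clcn7, the chloride and proton exchanger of lysosomes, was at 6.61 in Nlrp6-/- and 7.43 in WT, a difference of -0.81. Slc11a1, the phagosomal metal transporter also known as Nramp1, was at 6.94 in Nlrp6-/- and 7.74 in WT, a difference of -0.80. The cholesterol exporter gene Npc1 was at 6.42 in Nlrp6-/- and 7.10 in WT, a difference of -0.68. The 1 higher gene was Cd63, a tetraspanin of late endosomes and lysosomes, at 9.15 in Nlrp6-/- and 8.55 in WT.

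Further V-ATPase subunits had a median of -0.10 over 13 genes, 8 of them lower, with none at 1.5-fold in either direction. The 3 largest differences in this list were positive. Atp6v0a1, a V0 subunit, was at 5.35 in Nlrp6-/- and 4.77 in WT. The small V0 subunit gene Atp6v0e was at 7.99 in Nlrp6-/- and 7.51 in WT, and the V1 stalk subunit gene Atp6v1g1 was at 8.89 in Nlrp6-/- and 8.45 in WT. Over all 18 pump genes above a floor, Atp6v1a was the 1 gene at 1.5-fold, and the median was -0.12. Of all genes above a floor, 3.05% were at least 1.5-fold lower and 6.21% at least 1.5-fold higher.

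Genes of delivery and fusion, which carry enzymes to lysosomes and join lysosomes with other vesicles, had a median of 0.04 over 25 genes, 14 of them higher. Vamp7, a fusion protein of late endosomes, was at 6.24 in Nlrp6-/- and 5.21 in WT, a difference of 1.03. Borcs7, a subunit of a complex that positions lysosomes, differed by 0.68. Plekhm1, an adaptor of lysosome fusion, was at 5.91 in Nlrp6-/- and 6.74 in WT, a difference of -0.83. The cystatins, inhibitors of the cysteine cathepsins, were nearly level. Cst3 differed by -0.03, Cstb by -0.07 and Cst7 by 0.06, and 5 other listed members were below both floors.

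**Figure D3:**
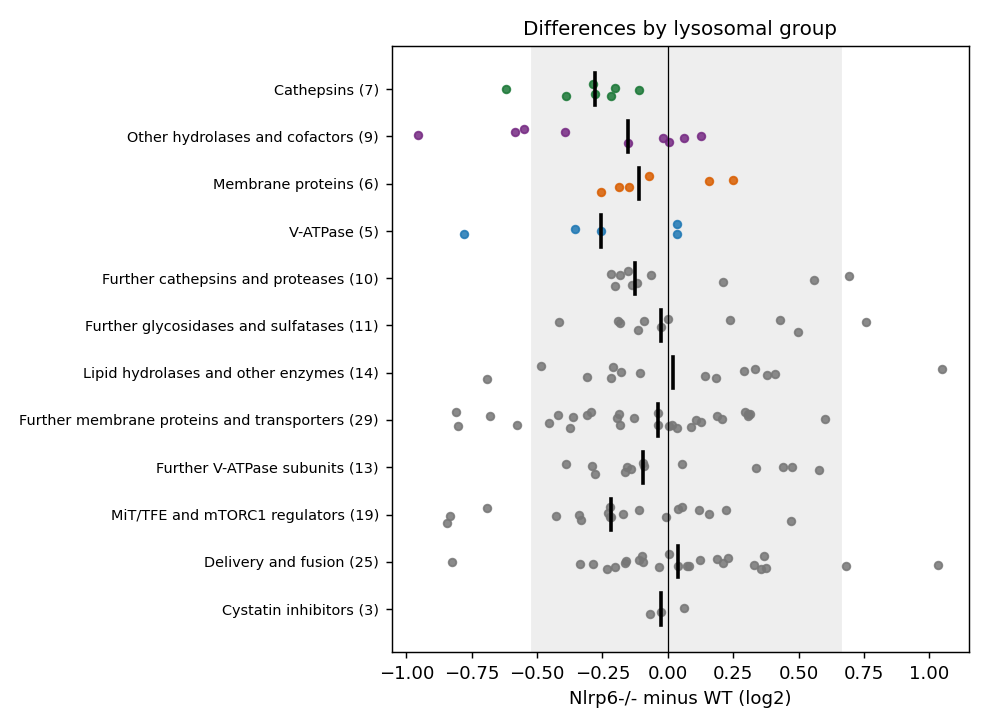
Difference of each gene above a floor (points, Nlrp6-/- minus WT, log2) and the median (black bars) for the 4 groups of lysosomal genes (coloured) and 8 lists of further lysosomal genes (grey), with the number of genes in brackets. Grey shading spans the 5th to 95th percentile of all genes above both floors, from -0.52 to 0.66, and all 7 coloured cathepsins lie left of 0.

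Genes with and without an E-box overlapped in their differences. Of the 9 measured genes with an E-box in a window, 6 were lower and the median was -0.11. Of the 14 without one, 11 were lower and the median was -0.26. The 5 genes with the 8-base core ran from -0.78 for Atp6v1a to 0.03 for Atp6v0d1, with Ctsd, Ctsa and Mcoln1 between them. For the core the medians stood in the other order. With it 4 of 5 were lower and the median was -0.20, and without it 13 of 18 were lower and the median was -0.17. Among all genes above a floor the medians were -0.01 with an E-box and 0.01 without one, and -0.06 with the core and 0.01 without it. Among the windows of Lipa, Ctsz, Hexa and Psap, no E-box was found.

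**Figure D4:**
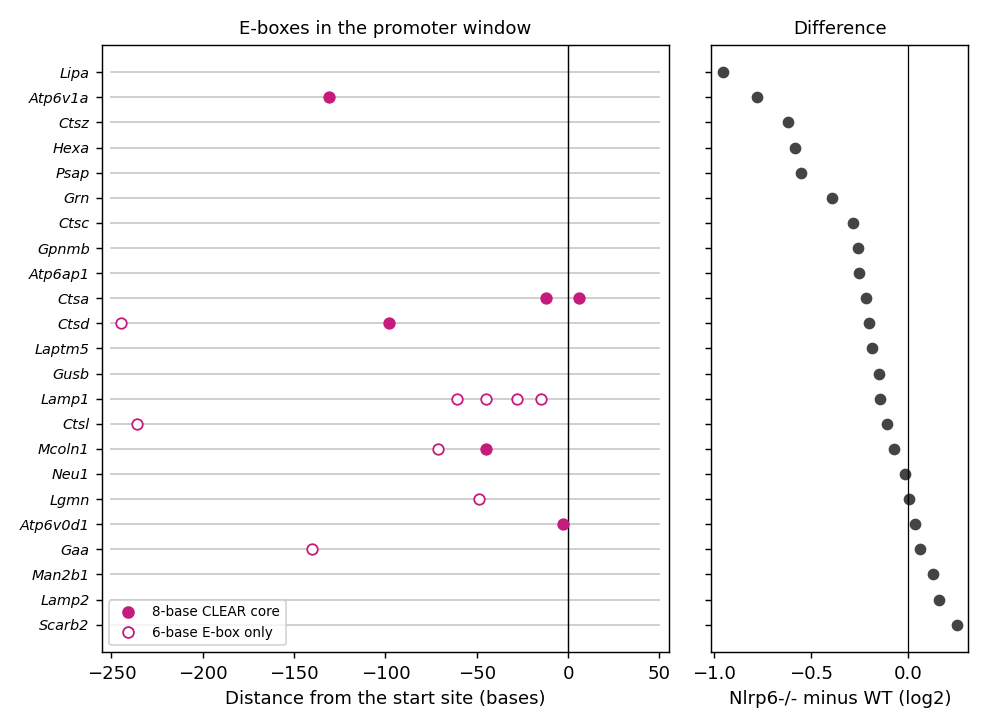
Position of E-boxes relative to the start site in the RefSeq promoter windows of 23 lysosomal genes above both floors (several windows of a gene share a line), ordered by their difference, which is drawn on the right (Nlrp6-/- minus WT, log2). Filled circles mark the 8-base core TCACGTGA and open circles the 6-base E-box alone; of the 5 genes with the lowest differences, Atp6v1a alone has one.

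Most of the 27 genes were bright on both arrays, so they were also set beside bright genes, a comparison chosen after the data were seen. Of the 22 with a mean level of at least 7, 17 were lower in Nlrp6-/- and 4 at least 1.5-fold lower, with none 1.5-fold higher and a median of -0.26. Of all 1727 genes above both floors at that level, 52.2% were lower, 4.46% were at least 1.5-fold lower, 6.66% were at least 1.5-fold higher, and the median was -0.02.

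Markers of cells that the gate should leave out also differed between the sorts, which kept no CD3+ or Ly6G+ cells by design. In bulk RNA, fewer cells of a type and less RNA per cell cannot be told apart. Each list is given by the sum of the linear levels of all its genes on the array, with 1 probe set per gene. Colon epithelial markers summed to 813 in Nlrp6-/- and 376 in WT. Of 16 measured genes of 20 listed, 15 were higher, against 51.6% of all genes, and 10 were at least 1.5-fold higher, against 6.21%. Lypd8 at 1.87 and Fcgbp at -0.02 were the ends of the range above both floors. B and plasma cell markers summed to 1715 in Nlrp6-/- and 1021 in WT. Of 8 measured genes of 11 listed, 8 were higher and 4 at least 1.5-fold higher, against the same shares. Above both floors they ran from 0.14 for Derl3 to 1.62 for Mzb1.

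Neutrophil markers summed to 1044 in Nlrp6-/- and 769 in WT, higher for 6 of 8 measured genes of 13 listed, against 51.6% of all genes. At least 1.5-fold higher were 4 of the 8, against 6.21% of all genes. S100a8, which monocytes also make, differed by 1.16, Lcn2 by 0.87 and the collagenase gene Mmp8 by -0.17. Retnlg was above the floor in Nlrp6-/- only, at 5.21 in Nlrp6-/- and 3.23 in WT. Ngp, Camp, Ltf, Elane and Mpo, which are granule genes, were below both floors. Stromal and endothelial markers summed to 1369 in Nlrp6-/- and 777 in WT. Of 13 measured genes of 14 listed, 10 were higher and 4 at least 1.5-fold higher, against the same 51.6% and 6.21% of all genes. They ran from -0.39 for Cdh5 to 1.45 for Mgp. T and NK cell markers summed to 180.1 in Nlrp6-/- and 132.8 in WT. Of 7 measured genes of 14 listed, 6 were higher and 2 at least 1.5-fold higher, against the same shares. Above both floors their range ran from -0.23 for Cd3e, a chain of the CD3 complex, to 0.87 for Gzmb. A sum weighs the brightest genes most, so medians are given too. The median difference was 0.88 for colon epithelial, 0.58 for B and plasma cell and 0.68 for neutrophil markers. It was 0.19 for stromal and endothelial and 0.44 for T and NK cell markers. The part of these cells in the lysosomal differences was not tested.

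By the median, markers of monocytes and macrophages differed less. Of 11 monocyte markers 6 were lower, against 48.4% of all genes, with a median of -0.08. None was at least 1.5-fold lower, against 3.05% of all genes, and 1 was at least 1.5-fold higher, against 6.21%. Cd14, the lipopolysaccharide co-receptor, differed by -0.22 and F13a1, a coagulation factor subunit, by 1.06. Of 11 macrophage markers 7 were lower, against the same 48.4%, with a median of -0.05, a difference of -0.25 for Adgre1 and one of 1.24 for Pf4. The 3 dendritic cell markers above both floors were lower, again against 48.4% of all genes, with Cd209a at -0.43 and Irf4 at -0.08 at the ends of their range. Osteoclast markers were below both floors for 4 of 7 genes, and so were 12656 of all 22184 genes. Ctsk and Atp6v0d2 were also below both floors. Of the other 3 osteoclast markers, Ocstamp was at 5.13 in Nlrp6-/- and 5.58 in WT and Nfatc1 at 3.56 in Nlrp6-/- and 3.45 in WT.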

How the data were processed

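RNA from sorted Ly6C-high monocytes was measured on 2 Affymetrix Mouse Gene 2.1 ST arrays, 1 per genotype, grouped by the genotype in the labels. Per the labels' protocols, 10 ng of RNA was amplified, and the authors computed RMA values in R 2.15.1 with the oligo package. The deposited values are log2 RMA levels per probe set, with medians of 2.84 in Nlrp6-/- and 2.87 in WT. The labels also mention log2 ratios, but levels from 1.14 to 12.34 with nearly equal medians are not ratios. They name 1 kit for amplification and labelling in one field and a different kit in another, and which was used is not settled. RMA equalises the distributions of arrays, so a shift of all transcripts cannot be seen. The set of arrays normalized together is not stated in the labels.

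Of 41345 probe sets, 23525 had 1 gene symbol in the platform annotation, 1810 had several and 16010 had none, and only the first kind was used. Each gene took its probe set with the highest mean of both arrays. Where 1 of the levels was under its floor, the fold was counted from that floor as a bound. List medians use measured levels. Of 277 symbols on the further lists and the marker lists together, 19 had no probe set of their own. No test was possible with 1 array per genotype, whose number limits the precision. All 31 genes were named, with the 3 largest differences in each further list and the highest and lowest gene above both floors of each marker list. Cd63, Lcn2, Retnlg and the neutrophil markers below both floors were named after their values were seen. The genes and lists were chosen with earlier results of these data known. Alternatives were other normalizations, floors, probe set rules and thresholds. Python 3.11.15 and statsmodels 0.14.6 were used, and the scripts were tested on simulated arrays. Promoter windows came from RefSeq (GRCm38.p6); no build is named for the array annotation, and genes have no other coordinates here.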

Additional observations from a re-analysis of the deposited data

How the results depend on the processing

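No paired analysis was possible because each genotype has 1 array. Under 7 alternatives for each group of lysosomal genes, the median over the 27 ranged from -0.23 to -0.17, that of the cathepsins from -0.30 to -0.25, that of the membrane proteins from -0.13 to -0.04 and that of the V-ATPase genes from -0.28 to -0.13. With a stricter floor, the receptors' 99th percentile, the median of the other hydrolases and cofactors was -0.39 and that of the further glycosidases and sulfatases 0.17, since the dimmer genes, such as Gaa and Neu1, were then left out. Medians of the further lists that changed sign were those of the glycosidases and sulfatases, positive under 4 alternatives and at most 0.17, the lipid hydrolases (-0.11 with probe sets averaged), the cystatins (0.07 with no floor), and, taken as means, the proteases (0.04) and V-ATPase subunits (0.02). The median of the further membrane proteins was -0.19 with the stricter floor. That floor gave 325 genes at least 1.5-fold higher and 189 lower, instead of 592 and 291. A threshold of 2-fold left 154 genes higher and 31 lower, and one of 3-fold left 29 higher and 0 lower, with 0 of the lysosomal genes lower at either threshold. Among genes with a mean level of at least 7, chosen after the data were seen, there were 115 and 77. Of 160 recomputed differences of the 27 genes, 2 changed sign: Atp6v1b2 was at -0.28 with its probe sets averaged, and Lgmn at -0.00052 with the median difference subtracted. Hexa was at -0.57, short of 1.5-fold, with the loess curve (span 0.3) subtracted.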
